A study of Homo sapiens with 6 samples.

Results

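Solute carriers are the largest family of human membrane transporters, and 200 of their genes were found among the 12438 gene symbols of the deposited GRO-seq tables. The members are all symbols made of SLC, a family number, the letter A and a member number, without the equilibrative nucleoside carriers SLC29A1 and SLC29A2, and they come from 45 SLC families. The tables held 365 transcript rows for them, and for the 94 members with several rows the row with the highest mean gene body density was used. The choice of members rests on names, but it was made with earlier results of these data known, and the choice of row uses measured density.

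GRO-seq maps engaged RNA polymerase by letting it extend its transcript in isolated nuclei, so the values speak of nascent transcription and not of mRNA or protein. The cells were A375, an established human malignant melanoma line, and the 3 groups were 25 µM A771726 for 48 h, 25 µM leflunomide for 48 h, and the solvent DMSO for 48 h as the control, each with 2 libraries. Leflunomide is a prodrug whose isoxazole ring opens to give A771726, also called teriflunomide, and A771726 inhibits the mitochondrial enzyme dihydroorotate dehydrogenase (DHODH) of pyrimidine synthesis. The series title connects this inhibition with HEXIM1, an inhibitor of the elongation kinase P-TEFb. A375 is 1 cell line, and nothing in the labels says that the replicates were independent cultures, so any p-value measures the spread between these libraries only. Of the melanocyte lineage markers, the transcription factor gene SOX10 had gene body densities of 0.273 with A771726, 0.330 with leflunomide and 0.329 in DMSO, above 98.6% of genes. MIA, MITF and PMEL were also present, whereas MLANA was low at 0.0046 with A771726, 0.00485 with leflunomide and 0.0152 in DMSO. The endothelial gene PECAM1 was low as well, with densities from 0.0055 to 0.0083. The lineage markers TYR, TYRP1, DCT and S100B had no values here. Neither had PTPRC, CD3E, EPCAM, KRT8 and ALB, markers of other cell types, so the marker check rests on few genes.

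Solute carriers move their substrates down a gradient or couple them to the flow of sodium, protons or another solute. Those at the cell surface bring in amino acids, sugars, phosphate, metals and vitamins. The SLC25 family sits mainly in the inner mitochondrial membrane, where it exchanges ADP for ATP and passes phosphate, citrate, other metabolites and nucleotides between the cytosol and the matrix. In tumour cells the carriers of glucose (SLC2A1), lactate (SLC16A3) and glutamine or leucine (SLC1A5, SLC7A5 with its partner SLC3A2) are known for the supply of growing cells.

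Each deposited value is the authors' mean over the 2 libraries of a group. Gene body density is a read density over the transcript body, promoter density is one over the start region, and the traveling ratio is promoter over gene body density. The sources used here give neither the density unit nor the window limits. Levels of different genes are set side by side on the density scale, taken to be per length because the authors divide one density by the other. To leave out the lowest values, a gene had to reach a mean gene body density of 0.00872, the 30th percentile of all symbols, which 113 of the 200 members and 8706 genes in all did. The other 87 members had a median density of 0.0033, and none of their group means was above 0.018. They include all 4 nucleoside carriers of the set (SLC28A1, SLC28A2, SLC28A3 and SLC29A4) and the pigment cell carrier SLC24A5. The carriers SLC7A11, SLC2A3, SLC16A1, SLC25A36, SLC12A2 and SLC45A2 were not analysed here.

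Polymerase was densest over a small group of carriers. The 10 highest of the 113 members were SLC20A1, SLC38A2, SLC5A3, SLC50A1, SLC3A2, SLC39A1, SLC26A2, SLC25A3, SLC43A3 and SLC25A1, and 9 members lay above the 90th percentile of genes. SLC20A1, a sodium-phosphate carrier, was first with densities of 0.172 with A771726, 0.296 with leflunomide and 0.191 in DMSO. SLC38A2, which takes up neutral amino acids such as glutamine and alanine, had 0.132 with A771726, 0.202 with leflunomide and 0.21 in DMSO. SLC50A1, a sugar carrier, had 0.137 with A771726, 0.157 with leflunomide and 0.181 in DMSO. The order of the top carriers thus differed between groups: SLC20A1 led with A771726 and leflunomide, and SLC38A2 led in DMSO. The median member past the filter had a mean density of 0.0249.

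**Figure D1:**
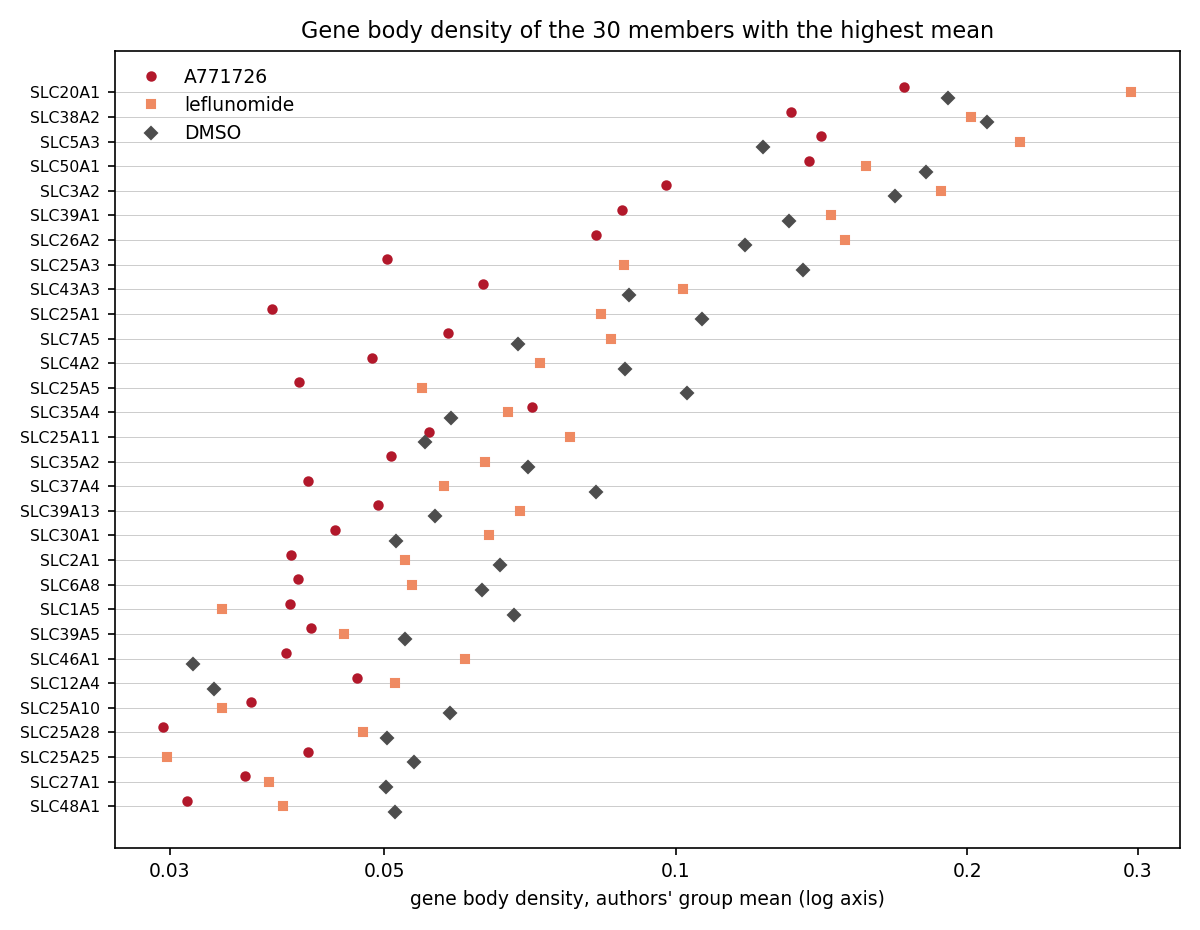
Gene body density (log axis, authors' group means) of the 30 carriers with the highest mean, with A771726, leflunomide and DMSO as separate symbols and no error bars because the columns are means. SLC20A1, SLC5A3 and SLC26A2 stand highest with leflunomide, whereas SLC25A3, SLC25A1 and SLC25A5 stand highest in DMSO.

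Promoter sequence is shown for 4 carriers whose gene body densities lie toward the ends of the comparisons, SLC5A3 and SLC20A1 (higher with leflunomide) and the mitochondrial carriers SLC25A3 and SLC25A5 (lower with both compounds). Mean promoter densities of these mitochondrial carriers stood the other way, at few reads. SLC25A3 had 0.108 with A771726, 0.211 with leflunomide and 0.0438 in DMSO, and SLC25A5 had 0.0487 with A771726, 0.0943 with leflunomide and 0.0219 in DMSO. The SLC25A3 libraries overlapped between groups, at 0.2165 and 0 with A771726, 0.3849 and 0.0376 with leflunomide, and 0.0875 and 0 in DMSO. For SLC25A5 the DMSO libraries had 0.0438 and 0, which is 1 read and none. Its leflunomide libraries (0.1041 and 0.0844) lay above them, and its A771726 libraries (0.0722 and 0.0252) overlapped them. The windows run from 250 bases before to 50 bases after the RefSeq gene start on build GRCh38.p14, all on the plus strand. They lie at chr21:34073328-34073627 (SLC5A3), chr2:112645689-112645988 (SLC20A1), chr12:98593436-98593735 (SLC25A3) and chrX:119468194-119468493 (SLC25A5). Capitals mark matches on either strand to the GC box GGGCGG, the CCAAT box CCAAT and the TATA box TATAAA. A match that overlaps an earlier match to the same motif is neither marked nor counted.
SLC5A3: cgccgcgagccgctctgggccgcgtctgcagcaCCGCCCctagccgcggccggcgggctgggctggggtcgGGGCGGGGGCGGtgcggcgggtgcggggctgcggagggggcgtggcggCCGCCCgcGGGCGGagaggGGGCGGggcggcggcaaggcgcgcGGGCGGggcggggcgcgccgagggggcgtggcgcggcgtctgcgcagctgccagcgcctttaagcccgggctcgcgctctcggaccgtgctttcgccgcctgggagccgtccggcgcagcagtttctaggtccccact
SLC20A1: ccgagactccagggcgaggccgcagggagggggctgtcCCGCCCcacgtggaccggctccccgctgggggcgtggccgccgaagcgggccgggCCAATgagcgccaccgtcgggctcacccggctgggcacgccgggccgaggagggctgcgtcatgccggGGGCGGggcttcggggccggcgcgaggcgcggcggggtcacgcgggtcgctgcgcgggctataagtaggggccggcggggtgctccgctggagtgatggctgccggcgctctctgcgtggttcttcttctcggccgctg
SLC25A3: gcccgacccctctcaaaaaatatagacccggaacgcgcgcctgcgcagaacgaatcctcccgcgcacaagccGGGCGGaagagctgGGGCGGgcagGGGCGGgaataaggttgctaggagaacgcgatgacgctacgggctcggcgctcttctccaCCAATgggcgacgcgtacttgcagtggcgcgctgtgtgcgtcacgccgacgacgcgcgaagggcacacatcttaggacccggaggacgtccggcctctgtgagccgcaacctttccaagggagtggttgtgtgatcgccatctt
SLC25A5: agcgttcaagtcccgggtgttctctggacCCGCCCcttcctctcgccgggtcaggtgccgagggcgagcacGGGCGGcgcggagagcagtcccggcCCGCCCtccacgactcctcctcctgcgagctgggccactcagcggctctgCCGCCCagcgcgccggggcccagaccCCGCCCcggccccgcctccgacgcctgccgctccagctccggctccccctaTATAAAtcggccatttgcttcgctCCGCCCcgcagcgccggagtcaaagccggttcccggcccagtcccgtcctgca
Counted without overlap, the GC box occurs 7 times in the SLC5A3 window, 2 times in SLC20A1, 3 times in SLC25A3 and 6 times in SLC25A5. The SLC5A3 window holds further GC boxes that overlap counted ones. A CCAAT box occurs in the SLC20A1 and SLC25A3 windows and a TATA box in that of SLC25A5. The SLC5A3 window is also that of MRPS6, a mitochondrial ribosomal protein gene with the same start, so the start does not separate the genes.

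Windows were found for 93 of the 113 members past the filter (82.3%). A GC box lay in 68.8% of them, against 64.6% of the genes of the tables and 44.6% of all RefSeq windows. The CCAAT box was found in 40.9% of the members, against 36% of the table's genes and 35.7% of all windows, and the TATA box in 6.45%, against 6.88% and 12% in those same sets. The motif TGATGNAA of C/EBP-ATF factors, known from amino acid response elements, lay in 6 of the 93 member windows (6.45%), against 2.13% of the table's genes and 3.67% of all windows. The cAMP response element TGACGTCA and the ETS motif CCGGAAGT were each in 3 windows (3.23%), against 2.59% and 6.55% of the table's genes and 1.98% and 4.44% of all windows. Median GC content was 66.7% in the members, 64.7% in the table's genes and 58.3% in all windows. All motifs were searched on both strands and counted separately, so matches to different motifs may overlap. These matches describe the letters only.

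The first comparison asks what A771726, the active metabolite, did to carrier transcription. The median of the 113 carriers had a log2 change of −0.55 against DMSO, beside −0.52 for all 8706 genes past the filter, so the carriers lay with the whole table. Changes are given below relative to the median gene, which removes this shift of −0.52. Over 3508 genes the library medians of gene body density were 0.0276 and 0.0225 with A771726, 0.0374 and 0.0348 with leflunomide, and 0.0402 and 0.0347 in DMSO. Less transcription per cell, fewer cells and the scaling of the libraries cannot be told apart in these values. On that scale 3 carriers were at least 2-fold higher with A771726 (2.65%, against 3.6% of all genes) and 5 were at least 2-fold lower (4.42%, against 5.73%). These shares lie close to those of the whole table. The 3 higher ones were SLC34A1, SLC7A7 and SLC25A39, and the 5 lower ones were SLC16A8, SLC30A2, SLC33A1, SLC26A10 and SLC38A7. Fold changes were taken on log2(density + 0.0022), which understates those of low genes, and the deposited means allow no test.

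The second comparison sets leflunomide, the prodrug, against DMSO. The median log2 change was −0.05 for the carriers and −0.06 for all genes. Relative to the median gene, 2 carriers were at least 2-fold higher, SLC16A3 and SLC39A6 (1.77%, against 2.25% of all genes). In the other direction 4 were at least 2-fold lower, namely SLC25A47, SLC38A7, SLC16A8 and SLC27A3 (3.54%, against 3.89%). Both shares were again near those of the table. The 2 comparisons with DMSO share the same DMSO libraries, so a carrier that is low or high in DMSO moves in both.

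The third comparison sets A771726 against leflunomide at the same dose and time. The carriers' median log2 difference was −0.51, beside −0.47 for all genes. Relative to the median gene, 5 carriers were at least 2-fold higher with A771726 than with leflunomide, SLC25A39, SLC27A3, SLC34A1, SLC25A47 and SLC34A3 (4.42%, against 3.38% of genes), and 2 were at least 2-fold lower, SLC26A10 and SLC16A11 (1.77%, against 3.77%). The value of SLC34A3 rests on 1 library, since its leflunomide libraries had 0.0434 and 0.005, against a mean of 0.0386 with A771726.

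The values of the 2 libraries behind each mean could be recovered for part of the genes, because the authors kept enough decimals of the mean densities and the mean ratio. All 6 libraries were recovered for 55 carriers past the filter, among 4963 genes. These genes have promoter reads in every group, so they are the better covered ones, and the other 58 carriers of the 113 were not tested. Limma's moderated test with Benjamini-Hochberg adjustment over the 4963 genes called 0 carriers and 0% of genes at adjusted p under 0.05 in each of the 3 comparisons. At an unadjusted p under 0.05 it gave 10 of the 55 carriers with A771726 against DMSO, all lower, beside 22.4% of all genes. It gave 4 carriers with leflunomide against DMSO, 2 in each direction, beside 5% of all genes. It gave 12 carriers between A771726 and leflunomide, 11 of them lower with A771726, beside 15.5% of all genes. Without the trend and robust options limma also called 0 carriers and 0% of genes. At an unadjusted p under 0.05 that fit gave 11 carriers with A771726 against DMSO (22.5% of genes), 4 with leflunomide against DMSO (4.94% of genes) and 12 between A771726 and leflunomide (15.5% of genes).

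The libraries of 2 groups often did not overlap, which in a 2 against 2 design cannot reach an exact two-sided permutation p below 0.333. Both A771726 libraries lay below both DMSO libraries for 30 of the 55 carriers (55.5% of all genes) and above them for 0 (2.18% of all genes). Both leflunomide libraries lay above both DMSO libraries for 10 carriers (14.3% of genes) and below them for 13 (21.2% of genes). Both A771726 libraries lay below both leflunomide libraries for 31 carriers (55.6% of genes) and above them for 1, SLC27A3 (2.36% of genes). When each library was centred on its own median, which leaves 40 carriers and 3508 genes with known libraries, limma called 0% of genes again. The unadjusted counts against DMSO were then 4 of 40 carriers with A771726, beside 8.32% of genes, and 6 of 40 with leflunomide, beside 5.47% of genes.

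Among the 7 substrate classes with at least 8 carriers past the filter, mitochondrial carriers had the lowest median against DMSO with A771726 and with leflunomide. Smaller classes were lower, namely monocarboxylate carriers (6 carriers, −0.30) and the class of dicarboxylate, peptide, urea and acetyl-CoA carriers (3 carriers, −0.27) with A771726, and fatty acid carriers (4 carriers, −0.46) and that same class of 3 (−0.29) with leflunomide. Of the 28 SLC25 genes in the tables, 23 passed the filter. With A771726, 18 of the 23 lay below the median gene (background 50%), with a class median of −0.21 on the log2 scale. With leflunomide, 18 of the 23 also lay below it (background 50%), with a median of −0.27. The other 90 carriers lay below the median gene in 40 cases with A771726 (median 0.05) and in 36 cases with leflunomide (median 0.11). Between A771726 and leflunomide the class was even, with 12 above and 11 below the median gene and a median of 0.01. This class was singled out after its values were seen, and no test was made of the class as a whole.

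**Figure D2:**
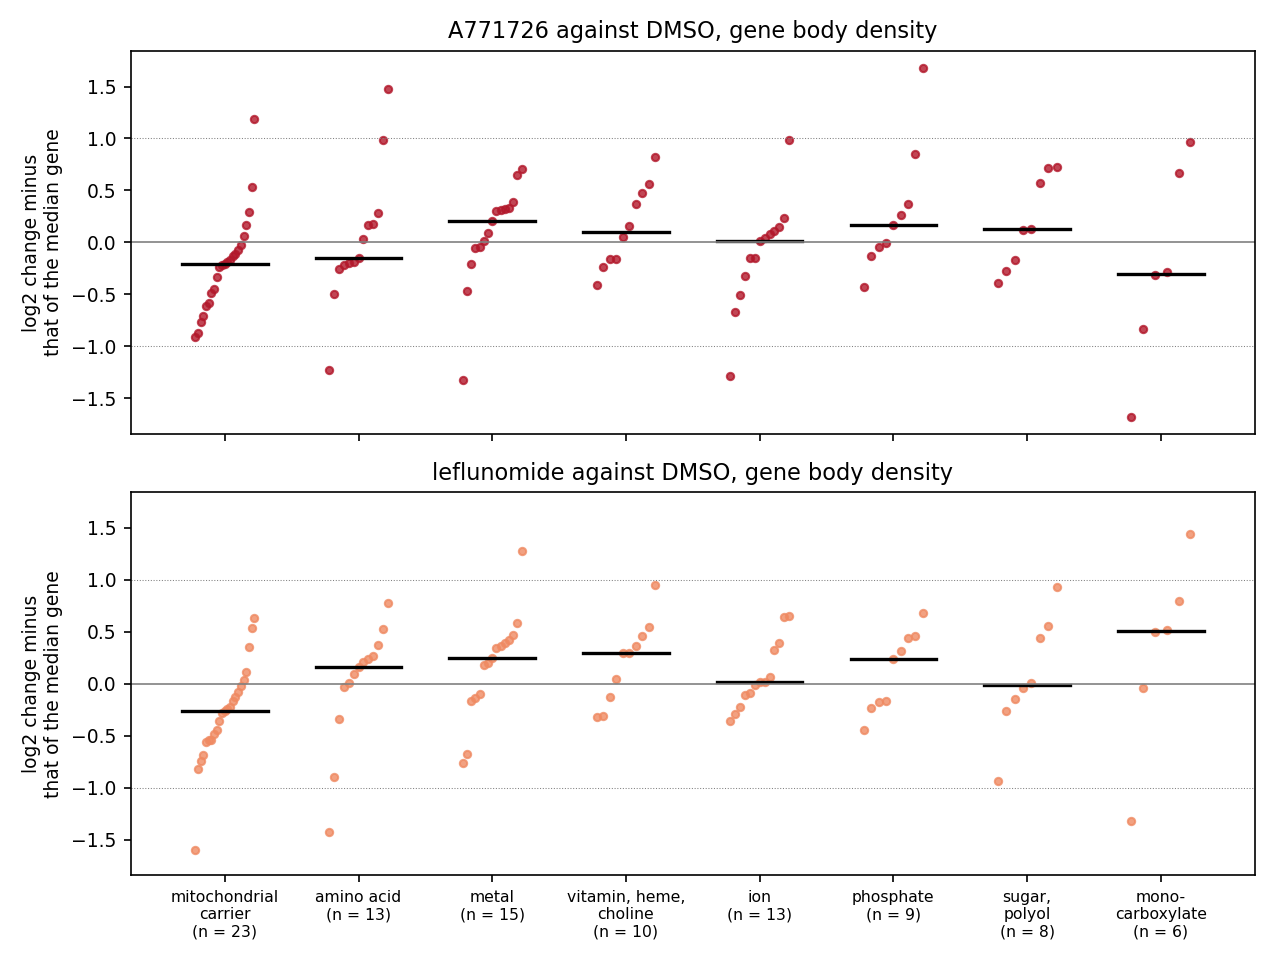
Log2 change of gene body density against DMSO minus that of the median gene, for each carrier (points) and the median (black bars) of the 8 substrate classes with at least 6 carriers past the filter, with A771726 in the upper panel and leflunomide in the lower one. Dotted lines mark a 2-fold difference, and the mitochondrial carriers lie mostly below 0 in both panels.

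SLC25A3 (NM_002635), which carries phosphate into the matrix for ATP synthesis, had gene body densities of 0.0599 and 0.0407 in the A771726 libraries, 0.0955 and 0.0815 in the leflunomide libraries, and 0.161 and 0.11 in the DMSO libraries. No library of one group overlapped those of another, and DMSO stood highest. The log2 change with A771726 was −1.39 (95% interval −2.22 to −0.56, limma adjusted p = 0.128), and −0.85 (−1.52 to −0.18, adjusted p = 0.51) after centring each library.

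SLC25A1 (NR_033687), the citrate carrier, had 0.0433 and 0.0333 with A771726, 0.103 and 0.064 with leflunomide, and 0.107 and 0.106 in DMSO. Its A771726 libraries lay below the other 4, and its leflunomide libraries below those in DMSO. It had the smallest adjusted p of the carriers with A771726, at 0.123 in limma, for a log2 change of −1.44 (95% interval −2.27 to −0.60). The row kept for it is a non-coding transcript of the gene.

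SLC25A5 and SLC25A6 encode the ADP/ATP carriers ANT2 and ANT3, which export ATP from the matrix. SLC25A5 had 0.0564 and 0.0253 with A771726, 0.0583 and 0.0511 with leflunomide, and 0.104 and 0.101 in DMSO. Both compounds' libraries lay below the DMSO libraries, while A771726 and leflunomide overlapped. Its log2 change was −1.39 with A771726 (95% interval −2.36 to −0.41, limma adjusted p = 0.154). Between A771726 and leflunomide the log2 difference was −0.50, with a 95% interval from −1.48 to 0.48 that spans 0 and a more than 2-fold lower value. SLC25A6 had 0.0259 and 0.0193 with A771726, 0.0467 and 0.0383 with leflunomide, and 0.0574 and 0.0466 in DMSO. Leflunomide and DMSO overlapped there, and the A771726 libraries lay below both. Reads of these genes are uncertain, since SLC25A5 has processed pseudogenes and SLC25A6 lies in the pseudoautosomal region with identical X and Y copies.

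SLC25A29, a carrier of basic amino acids, had 0.0175 and 0.0093 with A771726, 0.0287 and 0.0253 with leflunomide and 0.0377 and 0.031 in DMSO. The 3 groups did not overlap, with a limma adjusted p of 0.146 for a log2 change of −1.27 with A771726. SLC25A33, a pyrimidine nucleotide carrier of the mitochondrion, had 0.0104 and 0.009 with A771726, 0.0127 and 0.0098 with leflunomide and 0.0183 and 0.0131 in DMSO. Both compounds' libraries lay below DMSO, and limma called neither log2 change (−0.58 with A771726 and −0.41 with leflunomide).

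With A771726 and with leflunomide alike, 2 mitochondrial carriers lay above the median gene, SLC25A11 and SLC25A35. SLC25A11, which exchanges oxoglutarate for malate, had 0.0654 and 0.0458 with A771726, 0.0865 and 0.0689 with leflunomide, and 0.0598 and 0.0503 in DMSO. Its leflunomide libraries lay above the DMSO libraries, while its A771726 libraries overlapped them. SLC25A35 had group means of 0.0221 with A771726, 0.0476 with leflunomide and 0.0312 in DMSO, which is 0.06 (A771726) and 0.63 (leflunomide) relative to the median gene. Others differed between the compounds. SLC25A39, a carrier linked to mitochondrial glutathione import, had group means of 0.0556 with A771726, 0.0217 with leflunomide and 0.034 in DMSO. It stood highest of all carriers in the comparison of A771726 with leflunomide (log2 difference 1.75 relative to the median gene), but its DMSO libraries lay apart at 0.0563 and 0.0118, and its A771726 libraries were not recovered. SLC25A25, an ATP-magnesium and phosphate carrier, had 0.0539 and 0.0295 with A771726, 0.0326 and 0.027 with leflunomide and 0.0608 and 0.0466 in DMSO, so leflunomide lay below DMSO and overlapped A771726. SLC25A22, a glutamate carrier, had group means of 0.0366 with A771726, 0.0299 with leflunomide and 0.0433 in DMSO. SLC25A47 had group means of 0.012 with A771726, 0.0068 with leflunomide and 0.0263 in DMSO, and SLC25A41 had 0.0046 with A771726, 0.0155 with leflunomide and 0.0123 in DMSO. SLC25A47 lay below the median gene with both compounds (−0.49 with A771726 and −1.60 with leflunomide), and was the lowest of all carriers with leflunomide. Both have low densities, and their libraries were not recovered.

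In single libraries the class median could be set against the library median for 13 mitochondrial carriers with known libraries. The log2 differences were −0.22 and −0.25 in the A771726 libraries, 0.06 and −0.34 in the leflunomide libraries, and 0.31 and 0.14 in the DMSO libraries. All 4 compound libraries lay below both DMSO libraries, and the leflunomide libraries lay far apart. Over all 40 such carriers the same medians were −0.24 and 0.11 with A771726, 0.05 and −0.22 with leflunomide, and 0.00 and 0.10 in DMSO, with overlap. Separation by library was not limited to mitochondrial carriers. The 3 monocarboxylate carriers had medians of −0.51 and −0.01 with A771726, −0.13 and 0.15 with leflunomide, and −0.57 and −0.66 in DMSO. These compound medians lay above DMSO, but they fell on different carriers in different libraries. Relative to the median gene, SLC16A4 stood at 0.97 with A771726, SLC16A5 at −0.83 and SLC16A13 at −0.29. With leflunomide the same carriers stood at 0.52, −0.04 and 0.50, so the 3 did not rise together. The 4 amino acid carriers had 1.38 and 0.96 with A771726, 1.31 and 1.32 with leflunomide, and 1.03 in both DMSO libraries. The 3 ion carriers had −0.45 and −0.26 with A771726, −0.17 and −0.38 with leflunomide, and −0.41 and −0.49 in DMSO. In both of these classes the leflunomide medians lay above DMSO and the A771726 medians overlapped it. Not every carrier followed with leflunomide. SLC1A5 stood at −0.90 and the ion carrier SLC12A9 at −0.29 relative to the median gene, while the others of both classes stood above it.

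**Figure D3:**
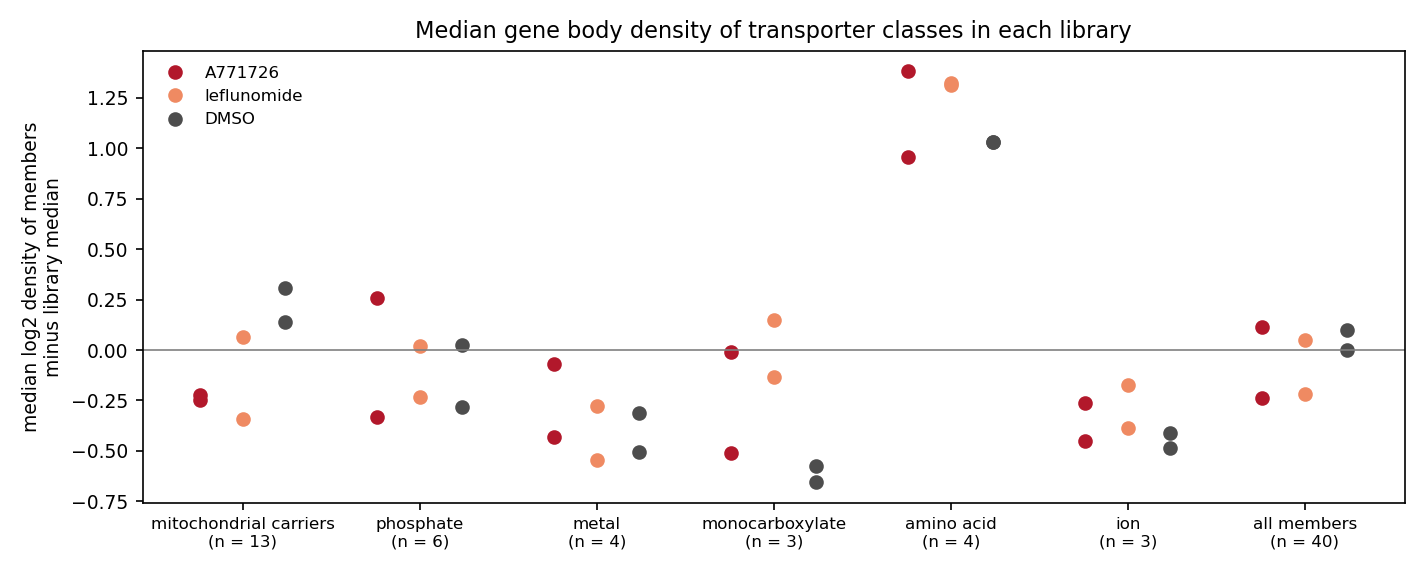
Median log2 gene body density of the carriers of a class minus the median of all 3508 genes with known libraries, 1 point per library, for A771726, leflunomide and DMSO. The median of the 13 mitochondrial carriers lies at −0.34 to 0.06 in the compound libraries and at 0.14 and 0.31 in DMSO. The medians of phosphate carriers, metal carriers and all 40 carriers overlap between groups. The median of the 3 monocarboxylate carriers is higher in all 4 compound libraries than in DMSO. Those of the 4 amino acid and 3 ion carriers are higher with leflunomide than in DMSO. Single carriers of these 3 small classes do not all follow their class median.

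Amino acid carriers, 13 of 24 past the filter, were split, with 6 above and 7 below the median gene with A771726 and 9 above and 4 below it with leflunomide. SLC3A2 (NM_001013251), the heavy chain that brings SLC7A5 and its relatives to the cell surface, had 0.108 and 0.0876 with A771726, 0.218 and 0.158 with leflunomide, and 0.174 and 0.163 in DMSO. The A771726 libraries lay below the other 4, and leflunomide overlapped DMSO. The log2 difference of A771726 from leflunomide was −0.92 (95% interval −1.61 to −0.22, limma adjusted p = 0.317). Its light chain SLC7A5, a leucine carrier with pseudogene copies, had 0.0736 and 0.0427 with A771726, 0.0956 and 0.076 with leflunomide, and 0.0821 and 0.0554 in DMSO, with the compounds overlapping DMSO. A771726 differed from leflunomide by −0.58 on the log2 scale there (95% interval −1.50 to 0.33, limma adjusted p = 0.397).

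SLC1A5 (NM_001145144), the main glutamine carrier ASCT2, had 0.0439 and 0.036 with A771726, 0.0418 and 0.0262 with leflunomide, and 0.0782 and 0.0578 in DMSO. Both compounds' libraries lay below both DMSO libraries and overlapped each other. The log2 change was −0.73 with A771726, and −0.97 with leflunomide (95% interval −1.84 to −0.11, limma adjusted p = 0.938). A771726 differed from leflunomide by 0.25 on the log2 scale (95% interval −0.62 to 1.11, adjusted p = 0.674), which shows neither a difference nor likeness. The glutamine carriers SLC38A2 and SLC38A1 stood near the median gene, at −0.15 and −0.19 with A771726 and at 0.00 and −0.03 with leflunomide. The cationic carrier SLC7A1 stood at −0.20 with A771726 and 0.17 with leflunomide.

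SLC7A7, a chain of the system y+L carrier, had group means of 0.0385 with A771726, 0.0323 with leflunomide and 0.0187 in DMSO, which is 1.48 (A771726) and 0.78 (leflunomide) above the median gene on the log2 scale. SLC43A1, a carrier of large neutral amino acids, had 0.0159 with A771726, 0.0112 with leflunomide and 0.0109 in DMSO. SLC38A7, a lysosomal glutamine carrier, had 0.0065 with A771726, 0.0083 with leflunomide and 0.0271 in DMSO, which is −1.23 (A771726) and −1.43 (leflunomide) relative to the median gene. These 3 could not be tested, since their libraries were not recovered in every group. SLC43A3, which takes up purine bases, had 0.0773 and 0.0491 with A771726, 0.107 and 0.0963 with leflunomide, and 0.0923 and 0.0867 in DMSO, so each group stood apart.

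Among sugar and polyol carriers, 8 of 14 past the filter, SLC5A3 had the highest value with leflunomide relative to the median gene (0.93). SLC5A3 (NM_006933) takes up myo-inositol together with sodium. It had 0.161 and 0.122 with A771726, 0.243 and 0.211 with leflunomide, and 0.125 and 0.121 in DMSO. The leflunomide libraries lay above the other 4, and A771726 overlapped DMSO. The log2 change with leflunomide was 0.87 (95% interval 0.21 to 1.53, limma adjusted p = 0.899) and 0.92 after centring each library (0.37 to 1.46, adjusted p = 0.796). With A771726 it was 0.18 before and 0.73 after centring (0.18 to 1.27, adjusted p = 0.51). Its gene shares the first exon and start of MRPS6, whose own gene body densities were 0.0837 with A771726, 0.143 with leflunomide and 0.0784 in DMSO, so reads of the pair may be shared. The glucose carrier SLC2A1 had group means of 0.04 with A771726, 0.0525 with leflunomide and 0.0659 in DMSO, which is −0.17 (A771726) and −0.26 (leflunomide) relative to the median gene. SLC45A4 had 0.0069 with A771726, 0.0064 with leflunomide and 0.0149 in DMSO.

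**Figure D4:**
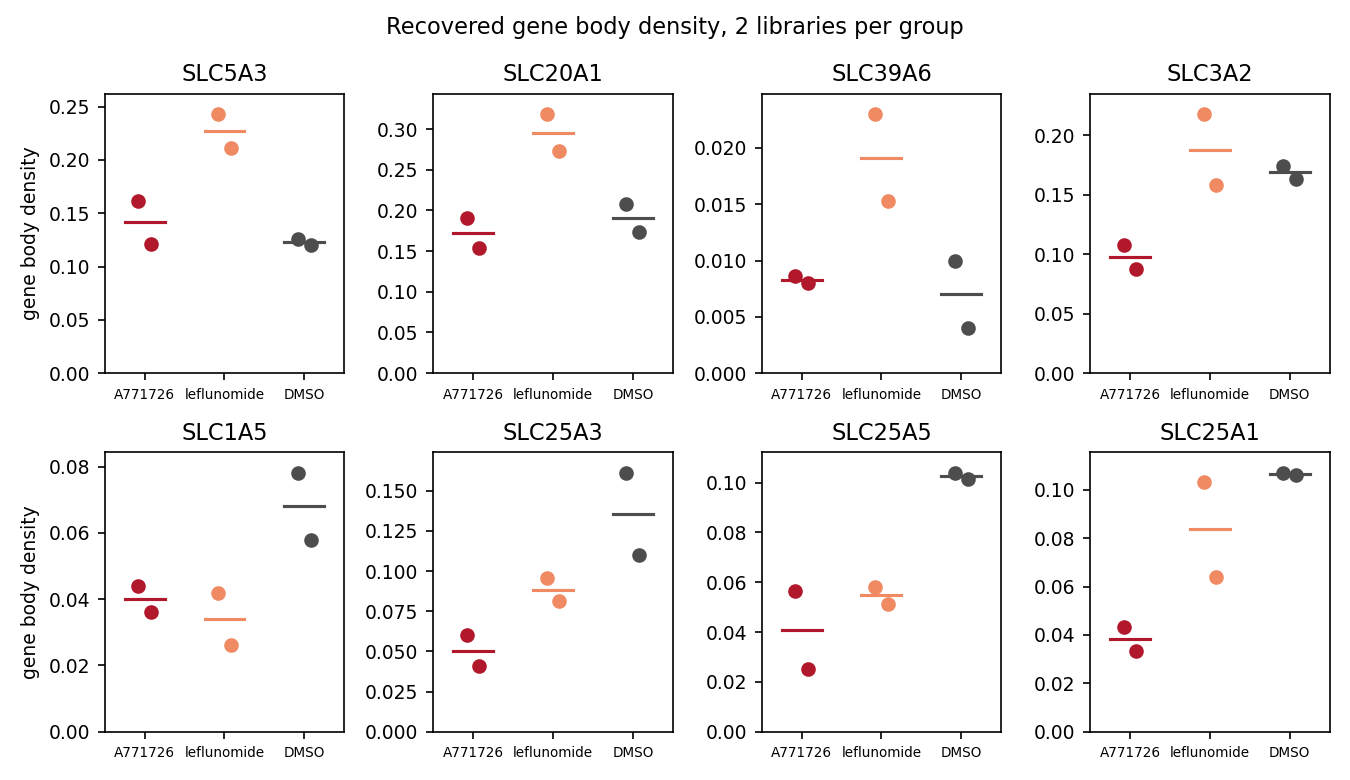
Recovered gene body density in the 2 libraries of each group (points) with their mean (bars) for 8 carriers, from A771726 at the left to DMSO at the right, each axis starting at 0. Leflunomide stands highest for SLC5A3, SLC20A1 and SLC39A6, and DMSO stands highest for SLC1A5, SLC25A3, SLC25A5 and SLC25A1.

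Phosphate carriers, 9 of 10 past the filter, had class medians of 0.17 with A771726 and 0.24 with leflunomide relative to the median gene. Both medians are the values of SLC17A5. Classes follow the family number, so a member such as SLC17A5 need not carry the named substrate. SLC20A1 had 0.191 and 0.154 with A771726, 0.318 and 0.273 with leflunomide, and 0.208 and 0.174 in DMSO. Leflunomide lay above the other 4 libraries, while A771726 and DMSO overlapped. The log2 difference of A771726 from leflunomide was −0.78 (95% interval −1.41 to −0.14, limma adjusted p = 0.317). With A771726 SLC20A1 lay 0.15 below DMSO as deposited (log2 −0.15) but 0.37 above the median gene, so its direction depends on the scaling. SLC34A1 and SLC34A3, sodium-phosphate carriers known from the kidney, had 0.0157 and 0.0386 with A771726, 0.0083 and 0.0242 with leflunomide, and 0.0058 and 0.0302 in DMSO. SLC37A4, the glucose-6-phosphate carrier of the endoplasmic reticulum, had 0.0451 and 0.0383 with A771726, 0.0627 and 0.0526 with leflunomide and 0.102 and 0.063 in DMSO, and the 3 groups did not overlap.

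Metal carriers, 15 of 22 past the filter, lay above the median gene in 10 cases with A771726 and in 10 with leflunomide. SLC39A6 (NM_012319), a zinc importer, had 0.0086 and 0.008 with A771726, 0.023 and 0.0153 with leflunomide, and 0.01 and 0.004 in DMSO. Leflunomide lay above the other 4 libraries, at low densities. Its log2 change was 1.27 with leflunomide (95% interval 0.26 to 2.28, limma adjusted p = 0.899). The densest metal carrier, the zinc importer SLC39A1, had 0.121 and 0.0548 with A771726, 0.193 and 0.0962 with leflunomide and 0.163 and 0.0994 in DMSO, with wide overlap.

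SLC30A1, the zinc exporter of the cell surface, had 0.0688 and 0.0202 with A771726, 0.0675 and 0.0609 with leflunomide, and 0.0736 and 0.0292 in DMSO, again overlapping. SLC39A14, which takes up zinc and iron, had group means of 0.0121 with A771726, 0.0225 with leflunomide and 0.017 in DMSO. Its leflunomide libraries (0.0286 and 0.0163) overlapped its DMSO libraries (0.0182 and 0.0158). The vesicular zinc carrier SLC30A2 had 0.0097 with A771726, 0.0236 with leflunomide and 0.0408 in DMSO, so DMSO stood highest. The zinc carriers SLC39A3 and SLC30A9 stood lower with A771726 than with leflunomide, at −0.85 and −0.78 on the log2 scale relative to the median gene. The copper carrier SLC31A2 had group means of 0.0196 with A771726, 0.0161 with leflunomide and 0.0301 in DMSO. Its DMSO libraries lay apart at 0.0446 and 0.0157, the lower of them below both compound means, and its compound libraries were not recovered.

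Monocarboxylate carriers, 6 of 11 past the filter, had class medians of −0.30 with A771726 and 0.51 with leflunomide against DMSO and −0.77 between A771726 and leflunomide. SLC16A3, the lactate exporter MCT4, had group means of 0.0265 with A771726, 0.0654 with leflunomide and 0.0237 in DMSO. It had the highest value of all carriers with leflunomide (1.44 relative to the median gene), and its libraries were not recovered because its promoter density was 0. SLC16A11 had 0.016 with A771726, 0.0522 with leflunomide and 0.0304 in DMSO.

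SLC16A13 had 0.0223 and 0.0064 with A771726, 0.0401 and 0.0339 with leflunomide, and 0.035 and 0.0185 in DMSO. SLC16A5 had 0.0187 and 0.009 with A771726, 0.0397 and 0.0324 with leflunomide, and 0.0515 and 0.0259 in DMSO. For both genes the A771726 libraries lay below the leflunomide libraries, with log2 differences of −1.43 (95% interval −2.70 to −0.16) and −1.32 (−2.38 to −0.25) and a limma adjusted p of 0.317 each. SLC16A4 had 0.0413 and 0.0252 with A771726, 0.0387 and 0.0283 with leflunomide and 0.0263 and 0.0212 in DMSO, and SLC16A8, known from retinal pigment epithelium, had group means of 0.0037 with A771726, 0.0083 with leflunomide and 0.025 in DMSO.

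Fatty acid carriers, 4 of 5 past the filter, held the one gene of the 55 that stood above leflunomide with A771726 in both libraries. SLC27A3 (NM_024330), a long-chain acyl-CoA synthetase of the fatty acid transport family, had 0.0293 and 0.0229 with A771726, 0.0119 and 0.011 with leflunomide, and 0.0342 and 0.0247 in DMSO. The leflunomide libraries lay below the other 4. The log2 difference of A771726 from leflunomide was 1.04 (95% interval 0.28 to 1.81, limma adjusted p = 0.317) and the change with leflunomide was −1.20 (−1.96 to −0.44, adjusted p = 0.899). Its relative SLC27A4 had group means of 0.0127 with A771726, 0.0188 with leflunomide and 0.0307 in DMSO.

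Vitamin, heme and choline carriers, 10 of 12 past the filter, included SLC46A1, the proton-coupled folate carrier, with group means of 0.0396 with A771726, 0.0605 with leflunomide and 0.0317 in DMSO. It lay 0.82 (A771726) and 0.95 (leflunomide) above the median gene on the log2 scale. Its A771726 libraries (0.0475 and 0.0316) overlapped its DMSO libraries (0.035 and 0.0284), and its leflunomide libraries were not recovered. The reduced folate carrier SLC19A1 had 0.0092 with A771726, 0.0119 with leflunomide and 0.0161 in DMSO, and so stood on the other side of DMSO. Of the organic cation carriers, SLC22A18 had 0.0123 with A771726, 0.0186 with leflunomide and 0.0111 in DMSO.

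Ion carriers, 13 of 35 past the filter, had medians of 0.02 with A771726 and 0.01 with leflunomide. SLC26A2 (NM_000112), the sulfate carrier, had 0.0836 and 0.0819 with A771726, 0.157 and 0.143 with leflunomide, and 0.123 and 0.113 in DMSO. The 3 groups did not overlap, and the log2 difference of A771726 from leflunomide was −0.84 (95% interval −1.48 to −0.19, limma adjusted p = 0.317). SLC12A4, a potassium-chloride carrier, had group means of 0.0469 with A771726, 0.0513 with leflunomide and 0.0333 in DMSO, and SLC26A10 had 0.0058 with A771726, 0.0226 with leflunomide and 0.0257 in DMSO. SLC4A7, a sodium bicarbonate carrier, had 0.0196 and 0.0184 with A771726, 0.0329 and 0.0304 with leflunomide, and 0.0331 and 0.0297 in DMSO.

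Nucleotide sugar carriers of the Golgi were 3, all past the filter. SLC35A1, the CMP-sialic acid carrier, had 0.013 and 0.0062 with A771726, 0.0204 and 0.0109 with leflunomide, and 0.0218 and 0.0207 in DMSO. Both compounds' libraries lay below DMSO, and those of A771726 and leflunomide overlapped. SLC33A1, the acetyl-CoA carrier of the endoplasmic reticulum, had group means of 0.0034 with A771726, 0.0116 with leflunomide and 0.0177 in DMSO. The creatine carrier SLC6A8, which has a near-identical copy elsewhere in the genome, had 0.0408 with A771726, 0.0534 with leflunomide and 0.063 in DMSO. Its leflunomide libraries (0.0745 and 0.0323) overlapped its DMSO libraries (0.067 and 0.0591).

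Promoter densities were sparse, since 105 of the 200 carriers were at 0 with A771726, 103 with leflunomide and 115 in DMSO. A single read in a promoter window came to a density of 0.0241 and 0.0313 in the A771726 libraries, 0.0347 and 0.0376 with leflunomide, and 0.0438 and 0.052 in DMSO. Of 115 carriers past the promoter filter, 31 were at least 2-fold higher with A771726 (20.8% of all genes) and 21 at least 2-fold lower (26% of all genes). With leflunomide 39 were at least 2-fold higher (30.6% of all genes) and 19 at least 2-fold lower (16% of all genes). No DMSO traveling ratio in these rows is above 7.5, which also limits DMSO promoter density for a given gene body density. How far this selection shifts promoter counts and single promoter values was not tested. The carriers' median log2 changes were 0.06 with A771726 and 0.18 with leflunomide, beside 0.00 and 0.22 for all genes. In the recovered libraries limma called 0 of 54 carriers at adjusted p under 0.05, beside 0.325% of genes with A771726 and 0.244% with leflunomide. At an unadjusted p under 0.05 there were 4 carriers with A771726 (7.41%, against 4.08% of genes) and 1 with leflunomide (1.85%, against 2.4% of genes).

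SLC20A1 was that one carrier with leflunomide. It had promoter densities of 0.887 and 0.344 with A771726, 0.752 and 0.728 with leflunomide, and 0.263 and 0.052 in DMSO. In reads the leflunomide libraries held 21 and 20, and the DMSO libraries 6 and 1. All compound libraries lay above DMSO. The log2 change was 2.04 with A771726 (95% interval 0.59 to 3.48, limma adjusted p = 0.75) and 2.44 with leflunomide (1.00 to 3.89, adjusted p = 0.307).

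SLC3A2 had 0.698 and 0.47 with A771726, 1.39 and 0.978 with leflunomide, and 0.728 and 0.609 in DMSO. Leflunomide lay above the other 4 libraries, with 40 and 26 reads against 29 and 15 with A771726. SLC35A4 had promoter densities of 0.0313 and 0 with A771726, which is 1 read and none, 0.356 and 0.0854 with leflunomide, and 0.394 and 0.351 in DMSO. The A771726 libraries lay below the others, with a limma adjusted p of 0.553. Its gene body libraries overlapped, with 0.0944 and 0.0477 with A771726, 0.0717 and 0.0626 with leflunomide, and 0.0679 and 0.0493 in DMSO. SLC50A1 had 0.594 and 0.0626 with A771726, 0.971 and 0.289 with leflunomide, and 0.832 and 0.517 in DMSO, so its libraries overlapped.

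**Figure D5:**
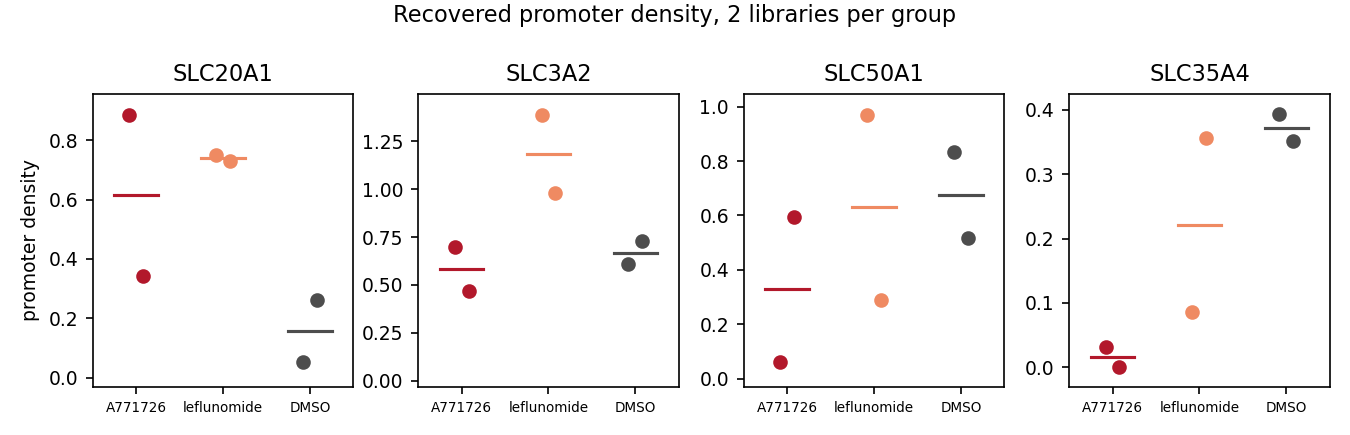
Recovered promoter density in the 2 libraries of each group (points) with their mean (bars) for 4 carriers chosen after their values were seen. For SLC20A1 all A771726 and leflunomide points lie at 0.344 or more and both DMSO points at 0.263 or less, whereas for SLC35A4 both A771726 points lie at 0.0313 or less.

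The traveling ratio could be compared for 56 carriers. It was at least 2-fold higher for 20 of them with A771726 (34.6% of all genes) and at least 2-fold lower for 5 (17.1% of genes). With leflunomide it was at least 2-fold higher for 13 (27.9% of genes) and at least 2-fold lower for 5 (15.3% of genes). The median log2 changes were 0.61 with A771726 and 0.23 with leflunomide, beside 0.42 and 0.27 for all genes. SLC20A1 had ratios of 3.45 with A771726, 2.52 with leflunomide and 0.879 in DMSO, and SLC25A5 had 1.65 with A771726, 1.74 with leflunomide and 0.216 in DMSO. That DMSO value of SLC25A5 rests on 1 promoter read in 1 library and none in the other. SLC35A4 had 0.166 with A771726, 3.44 with leflunomide and 6.46 in DMSO, the opposite order. The rows of the tables were selected on DMSO values, since no DMSO ratio is above 7.5 while 23 carriers exceed it with A771726 and 17 with leflunomide. A DMSO ratio above 7.5 therefore cannot occur in these rows, whereas the compound ratios have no such limit. With that limit applied to all 3 groups, the median was 0.39 with A771726 and −0.11 with leflunomide, the second no longer above 0.

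Beside the carriers, 8 of 9 transport partner genes found in the tables passed the filter, and 5 of them lay above the median gene with A771726 and 7 with leflunomide. BSG, the chaperone basigin of monocarboxylate carriers, had gene body densities of 0.13 with A771726, 0.145 with leflunomide and 0.131 in DMSO. The ABC transporters, 15 of 36 past the filter, had medians of −0.13 with A771726 and −0.20 with leflunomide, and the 12 of 24 SLC35B to SLC35G and SLCO genes past it had 0.04 and 0.09.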

How the data were processed

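Nascent RNA was measured by GRO-seq in 6 libraries of A375 cells, 2 per group. Per the submitters' processing notes, the authors used build hg18, Bowtie 0.12.9 and bedtools. The deposited promoter and gene body columns are signal values (read density), each averaged by the authors across the 2 libraries of its group, and the deposited traveling ratio is likewise a mean, per the file headers. These means carry no SD or n. The headers write A771762, read here as A771726. The sources used here give no window limits, scaling, strand use or library depth. Read counts were recovered for part of the promoter values only, and sampling error was not set per value.

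The members and lists were chosen with earlier results of these data known. From the means, log2 changes were computed with pseudocounts of 0.0022 (gene body) and 0.01735 (promoter). Genes below the 30th percentile of row means were left out. The named carriers are the 8 highest and 8 lowest of each comparison relative to the median gene, a list of textbook roles and the 10 densest. Others named with values (such as SLC25A29, SLC25A11, SLC37A4 and SLC35A4) were chosen after their values were seen.

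Library values were solved from the 4 decimals of each density and the mean ratio, for 98.6% (A771726), 98.5% (leflunomide) and 98% (DMSO) of rows with a ratio. Library 1 is the one with the smaller value of 1 promoter read. Of promoter values up to 10 reads, 81.2%, 78.6% and 79% lay on whole reads within rounding, against 0.0761%, 0.0583% and 0.133% after a shift by 0.333 read. Limma 3.58.1 (R 4.3.3, trend and robust options, 3 residual degrees of freedom) was fitted over all 6 libraries and tested on simulated data. Alternatives were a pseudocount 5 times larger, other filters, the mean of all rows of a symbol, a ratio limit, centring, limma without its options and leaving out each library. Promoter windows are from RefSeq (GRCh38.p14) and were matched by the transcript of the row used, or by symbol where that transcript was not found.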

Additional observations from a re-analysis of the deposited data

How the results depend on the processing

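No paired analysis was possible because the columns carry no replicate letters. With a pseudocount 5 times larger, the carriers' median log2 change was −0.38 with A771726 against DMSO (main value −0.55) and −0.34 between A771726 and leflunomide (main value −0.51). Counts of carriers at least 2-fold from the median gene rest on few low genes. With that pseudocount, carriers with A771726 against DMSO numbered 0 lower (main value 5), those with leflunomide against DMSO 1 higher and 1 lower (main values 2 and 4), and those between A771726 and leflunomide 2 higher and 0 lower (main values 5 and 2). With the filter at the 50th percentile they were 2 lower, 1 higher and 1 lower, and 3 higher in the same comparisons. With no filter, 8 were higher with A771726 against DMSO and 5 lower between A771726 and leflunomide. With the ratio limit of 7.5 in every group, the median traveling ratio change with leflunomide was −0.11 (main value 0.23) and that with A771726 0.39 (main value 0.61). At the 50th percentile filter the leflunomide value was 0.01. The promoter medians, 0.06 with A771726 and 0.18 with leflunomide, were 0 with no filter, and the leflunomide one was 0.40 at the 50th percentile filter.

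Leaving out a library leaves its group with 1 library, so no calls are given for those fits. Over the 40 carriers with known libraries, the median log2 change with A771726 against DMSO was −0.62. It was −0.80 without A771726 library 1 and −0.48 without library 2, beside −0.67 and −0.38 for all 3508 genes. With leflunomide against DMSO it was −0.13, and −0.27 and 0.08 without leflunomide library 1 or 2, beside −0.08 and 0.00 for all genes. Of 13 mitochondrial carriers in recovered libraries, those below the median gene made up 84.6% with A771726 (69.2% to 76.9% when 1 library was left out) and 76.9% with leflunomide (76.9% to 84.6%). In the deposited means, the 78.3% with A771726 was 65.2% with the larger pseudocount and 64.3% at the 50th percentile filter, and with leflunomide it ranged from 67.9% to 78.6%. These checks of the mitochondrial class were added after seeing the data. Promoter densities of a few reads limit most promoter and ratio values, and a p above the threshold does not show that a carrier is unaffected.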
